A study of Mus musculus with 15 samples.

Results

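Mice with any of 3 combinations of mutant Apc alleles were compared, as 1 pooled set of 9 arrays, with wild-type mice on 3 arrays, and the changes were sorted by whether they were of like size in all 3 mutant genotypes. The wild-type group, wt/wt, was read from arrays 4 to 6. The mutant genotypes were 15lox/15lox (titled KO), which carries the floxed allele on both chromosomes, and 15lox/1638N and 15lox/1572T (titled N1638 and T1572), in which a hypomorphic allele stands opposite the floxed one, with 3 arrays each. All mice were C57BL6, with no age given. The cells of every group, wild type included, were LSK cells, the bone marrow fraction that holds stem and multipotent progenitor cells. They were grown in StemSpan medium with mouse Flt3 ligand, thrombopoietin and stem cell factor, received an MSCV retrovirus carrying Cre and GFP, and were sorted for GFP, so that Cre acted in culture and in any transduced cell type. The comparison used 12 of the 15 arrays of the series. Wild-type arrays 1 to 3 were left out because their mean lay within 0.05 of the mean of arrays 4 to 6 at 96.7% of probe sets, a closeness for which the sources used here give no reason. The labels do not say whether replicates came from separate animals, so p-values measure the spread between samples, which may be technical.

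Apc is a scaffold of the cytoplasmic complex that marks beta-catenin for destruction. When the complex fails, beta-catenin accumulates, enters the nucleus and acts with Tcf and Lef factors on genes such as Axin2 and Lef1, several of which feed back on the pathway. In blood progenitors the strength of the signal is known to matter, and Apc alleles that leave different amounts of function are used to set it at different levels. Pooling the genotypes addresses a different question, which is what differed from wild type to a like extent in every mutant genotype. Whether loss of Apc function caused such a shared difference was not tested, because every genotype was compared with the same wild-type arrays.

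Levels are log2 values, so that a difference of 1 is 2-fold, and 1 probe set stood for each of 18194 genes. Apc itself was measured by 4 probe sets. On the one with a wild-type mean of 9.75 the 15lox/15lox arrays were at 5.58, 6.10 and 5.69, and the differences were -3.96 in 15lox/15lox, -1.2 in 15lox/1638N and -0.93 in 15lox/1572T, with a pooled difference of -2.03 ± 0.12 (SE; limma, adjusted p over all probe sets = 2.36e-05). Those with wild-type means of 8.94 and 6.62 fell as well, by 1.98 (adjusted p = 0.000407) and 0.90 (0.00929). The fourth, with a wild-type mean of 9.68, was 0.49 higher in the pooled mutants (adjusted p over genes = 0.0346, 0.0566 on male-type arrays, and lost without any 1 of the wild-type arrays) and, having the highest mean over all arrays, stood for Apc among the genes. The mean of the 4 probe sets was down by 1.10, so the sign for Apc depends on the probe set. The files do not say which exons each covers.

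After culture, transduction and sorting, the cells still carried RNA of LSK markers. In wild type, the mean level of Kit was 11.19, of Cd34 13.34, of Flt3 12.72 and of the pan-blood gene Ptprc 12.24. Of the lineage genes, Cd3e at 5.11, Cd4 at 5.02, Cd8a at 5.68 and Itgam at 5.20 stood under the array medians. They do not stand for all lineage genes. Mean levels on wild-type arrays were 6.66 to 6.96 over B lineage genes. They were 8.86 to 8.96 over granule protease and neutrophil genes and 9.21 to 9.43 over monocyte and macrophage genes. The low values therefore do not show that the cells lacked lineage RNA. None of the 10 measured LSK surface and lineage markers passed the pooled test (0 called by limma, 3 at an unadjusted p under 0.05, all lower). At that unadjusted p 10.9% of all genes were lower. Array medians lay between 6.65 and 6.84. By Xist and Y-linked genes, the 3 wild-type arrays were all of male type, and 4 of the 9 mutant arrays were of female type (2 of 15lox/15lox, 1 of each other genotype). Sex type thus moved with the pooled comparison, and its part in the results was not tested beyond a fit with sex type as a covariate and a fit on male-type arrays. Of the 54 named genes that were called, 9 were not called on male-type arrays alone and 14 not with the covariate.

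The H2-Eb1 promoter is shown because H2-Eb1 is the like-sized member in whose start region both searched motifs occur, and those of Pdcd1 and Axin2 because they are the highest like-sized gene and the standard graded Wnt target. The sequences are RefSeq's for assembly GRCm38.p6, 250 bases before to 50 after the start, written 5′ to 3′ on the gene's own strand. H2-Eb1 lies at chr17:34305617-34305916 (+ strand), Pdcd1 at chr1:94052504-94052803 (- strand) and Axin2 at chr11:108920099-108920398 (+ strand). Capitals in H2-Eb1 mark first ATCAAAG on the opposite strand, the core letters bound by Tcf and Lef factors, which begins 70 bases before the start, and then CTGATTGG, the Y box of MHC class II promoters; the other sequences hold neither.
H2-Eb1: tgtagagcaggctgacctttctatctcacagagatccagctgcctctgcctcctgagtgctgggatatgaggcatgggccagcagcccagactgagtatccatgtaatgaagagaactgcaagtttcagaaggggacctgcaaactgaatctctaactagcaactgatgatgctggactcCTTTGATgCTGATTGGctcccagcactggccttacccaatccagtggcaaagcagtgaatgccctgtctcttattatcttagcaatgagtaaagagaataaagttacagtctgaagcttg
Pdcd1: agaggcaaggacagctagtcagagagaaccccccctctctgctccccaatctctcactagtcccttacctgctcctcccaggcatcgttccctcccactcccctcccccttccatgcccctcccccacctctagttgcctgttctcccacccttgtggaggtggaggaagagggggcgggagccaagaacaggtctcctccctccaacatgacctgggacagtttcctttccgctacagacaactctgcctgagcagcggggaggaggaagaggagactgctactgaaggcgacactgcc
Axin2: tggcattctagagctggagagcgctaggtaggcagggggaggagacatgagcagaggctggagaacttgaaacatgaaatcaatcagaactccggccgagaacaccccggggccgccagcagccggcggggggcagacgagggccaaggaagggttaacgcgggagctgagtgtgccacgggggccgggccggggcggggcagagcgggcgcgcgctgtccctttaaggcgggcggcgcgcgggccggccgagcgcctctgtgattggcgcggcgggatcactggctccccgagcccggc

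Both strands were searched and no hits of the 2 motifs overlapped in H2-Eb1. ATCAAAG occurred in the promoters of 1 of 52 like-sized lower genes with an entry (1.92%), 0 of 5 like-sized higher genes, 5 of 145 other called higher genes (3.45%) and 4 of 139 other called lower genes (2.88%). Its share over all 32851 promoters was 3.73%. CTGATTGG, a motif added after values were seen, occurred in 3 of 52 like-sized lower genes (5.77%), namely Crispld2, Ddx4 and H2-Eb1, against 5.86% of the 14537 tested genes with an entry. No test was made of these shares, and a match is a run of letters, not a bound site.

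In the pooled comparison 447 genes passed the test (2.46% of genes, limma, adjusted p under 0.05), 196 of them higher (1.08%) and 251 lower (1.38%). The rises and the falls differed in how evenly the genotypes shared them. Among the rises the median log2 difference was 1.52 in 15lox/15lox, 0.93 in 15lox/1638N and 0.28 in 15lox/1572T. Among the falls it was -0.72, -0.95 and -0.63. In absolute size, the smallest of a gene's 3 changes was a median 0.209 of the largest over all 196 rises, and 0.605 over the 251 falls. The rises include genes whose 3 changes differ in sign. Each of the 251 lower genes was lower in each of the 3 genotypes, as were 165 of the 196 higher genes in their direction.

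Differences between the 3 mutant genotypes were tested by a moderated F test. Its contrasts leave wild type out, though the wild-type arrays share in the estimate of the spread. It passed 250 genes in all (1.37%), and 170 when the 9 mutant arrays were fitted alone. Of the 196 higher genes 123 passed it (62.8%), and of the 251 lower genes 4 (1.59%). Passing it shows that the genotypes differ, in whatever order. Not passing it does not show that they are equal. The count of 447 rests on the few controls: it was 171 without wild-type array 4, 179 without array 5 and 219 without array 6.

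**Figure D1:**
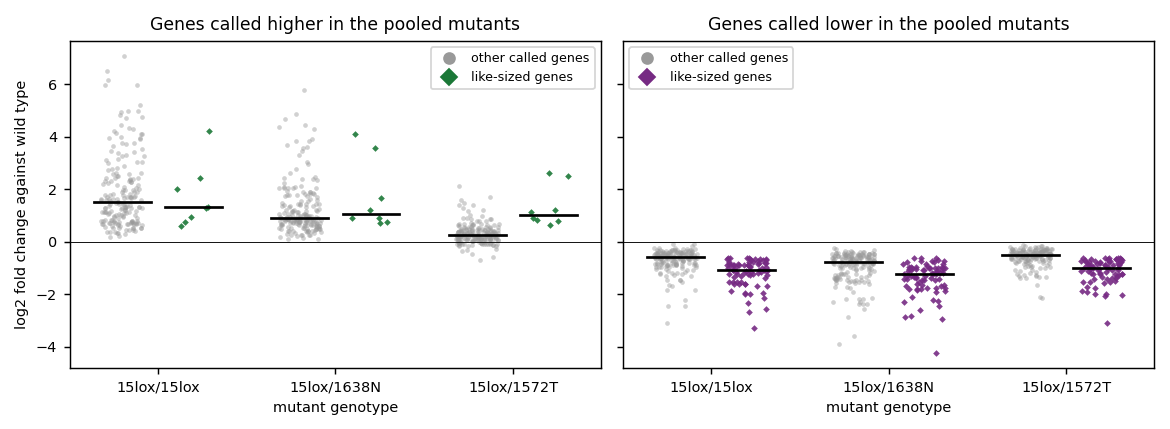
Log2 difference from wild type (vertical axis) of each called gene in each mutant genotype (horizontal axis), for higher and lower genes, with like-sized genes set apart from the others by colour and horizontal lines at the medians. Medians of the called higher genes step down from 1.52 to 0.93 to 0.28, while those of the called lower genes are -0.72, -0.95 and -0.63.

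A called gene was counted as like-sized when its 3 genotype differences had one sign, were each at least 1.5-fold, and the smallest was at least 0.6 of the largest. This is a description made from the values and has no test of its own. There were 85 such genes (0.467% of all genes), 8 higher (0.044% of all genes, 4.08% of the called higher genes) and 77 lower (0.423% of all genes, 30.7% of the called lower genes). Median differences in 15lox/15lox, 15lox/1638N and 15lox/1572T were 1.31, 1.08 and 1.02 for the 8 higher genes and -1.06, -1.23 and -1 for the 77 lower ones. The largest of the 3 falls was in 15lox/1638N for 60 genes, in 15lox/15lox for 13 and in 15lox/1572T for 4.

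**Figure D2:**
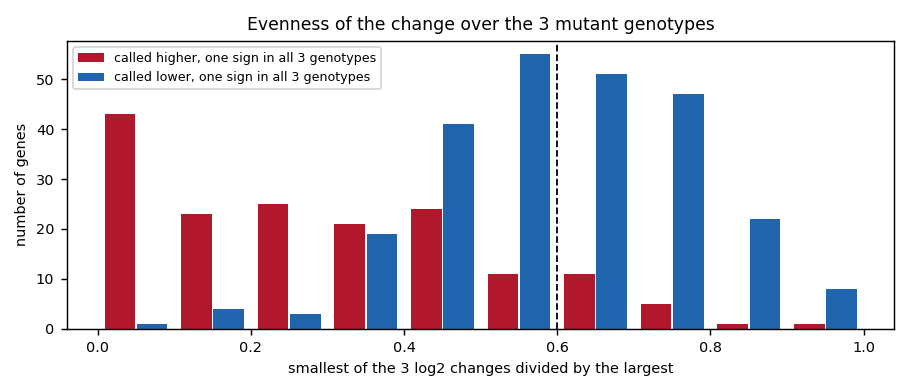
Number of called genes (vertical axis) by the ratio of the smallest to the largest of their 3 genotype differences (horizontal axis, no unit), for genes of one sign in all genotypes, rises and falls apart, with a dashed line at 0.6. The median over all called genes, those of mixed sign included, is 0.209 for the 196 rises and 0.605 for the 251 falls.

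How firmly a gene sits in the like-sized set depends on precision. The 95% interval of a difference between a pair of mutant genotypes had a median half-width of 0.48 for the 77 lower genes and 0.42 for the 8 higher genes. All 3 such intervals included 0 for 63 of the 77 and for 4 of the 8. The 3 differences of a gene also share the same wild-type mean, so its error enters all of them alike, and the wild-type SD had a median of 0.259 over the like-sized lower genes, 0.13 over the other called lower genes and 0.123 over all genes. Just inside the ratio were Itgax and Zfyve28 (0.608 each), Ccser1 (0.611), Havcr2 and Hs3st3b1 (0.614 each). Just outside it were Ddit4l (0.586), Bmf (0.587), Klhl30 (0.594), Cd74 (0.595) and Pvr (0.596), genes given here for their place at the limit and not by the naming rule.

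The deepest like-sized fall was in an antibody gene, and surface receptors, adaptors and factors of lymphoid and plasmacytoid cells fell with it. Igha, the constant region of the IgA heavy chain, stood at 10.11, 10.53 and 8.63 in wild type. It stood at 6.00, 5.60 and 7.78 in 15lox/15lox, at 5.36, 5.51 and 5.75 in 15lox/1638N and at 5.70, 5.91 and 8.45 in 15lox/1572T. Every mutant array was below every wild-type array, with array 3 of 15lox/15lox and of 15lox/1572T the nearest. The pooled difference was -3.53 ± 0.61 (SE; limma, adjusted p = 0.0101), an 11.5-fold lower level. The differences were -3.30, -4.22 and -3.07 in 15lox/15lox, 15lox/1638N and 15lox/1572T, the order used for every such triple from here on. The call was lost without wild-type array 4 (adjusted p = 0.0779) or 5 (0.085).

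Ccr9, the receptor for the chemokine Ccl25 carried by thymus-seeding progenitors and plasmacytoid dendritic cells, fell from 10.23, 10.61 and 9.68 in wild type to 7.74, 7.09 and 7.67 in 15lox/15lox, 7.37, 6.96 and 7.43 in 15lox/1638N and 7.41, 8.36 and 9.10 in 15lox/1572T. The groups did not overlap, and array 3 of 15lox/1572T was the closest to wild type. The pooled difference was -2.49 ± 0.30 (adjusted p = 0.00128), made up of -2.68, -2.92 and -1.89. The interval of 15lox/1638N minus 15lox/1572T ran from -1.85 to -0.22 and that of 15lox/15lox minus 15lox/1572T from -1.60 to 0.02. No difference between genotypes passed a test adjusted over all genes (F test, adjusted p = 0.461). Lax1, an adaptor that dampens antigen receptor signalling in lymphocytes, was at 9.81, 9.96 and 9.50 in wild type and between 6.30 and 8.20 in the mutants (median 7.73). Its pooled difference was -2.14 ± 0.26 (adjusted p = 0.00132).

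Spib, an Ets factor of B cells and plasmacytoid dendritic cells, was at 10.11, 11.26 and 9.50 in wild type and between 7.07 and 9.20 in the mutants (median 8.45). Its 3 differences were nearly equal, -1.99, -2.28 and -1.99, while the wild-type arrays had an SD of 0.89. The pooled adjusted p was 0.0427, and it was above the threshold in 12 of 21 alternative settings, among them male-type arrays alone (0.0504), the sex covariate (0.0968) and each wild-type array left out (0.0582 to 0.226). Pacsin1, a membrane-shaping protein that plasmacytoid dendritic cells express, was lower throughout, from 6.44, 6.85 and 6.11 in wild type to between 4.87 and 5.33 (pooled -1.29 ± 0.13, adjusted p = 0.000362). Of 14 measured plasmacytoid dendritic cell genes 4 fell (Ccr9, Spib, Pacsin1 and Ly6d) and 0 rose (0 higher at an unadjusted p under 0.05). Of all genes 1.38% were called lower and 1.08% higher, and 4.46% were higher at that unadjusted p (limma). Ccr9 and Ly6d are counted again among the early lymphoid genes below. The call of Ly6d, a surface protein of lymphoid progenitors, was lost on male-type arrays (adjusted p = 0.068) and without wild-type array 4 (0.122) or 5 (0.16). The list's median was -0.77, or -0.60, -1.02 and -0.58 by genotype, beside -0.03 over all genes.

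Summed as a mean level, the 14 plasmacytoid genes lay between 9.62 and 10.05 on wild-type arrays and between 8.36 and 9.40 on mutant arrays. No detection call was made, so these means do not show that each member was present in every group. The mutant mean of Pacsin1 was at percentile 29.1 of probe set means. In these bulk samples fewer cells of a type and less RNA per cell cannot be told apart, and the part of cell composition in any of these falls was not tested.

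**Figure D3:**
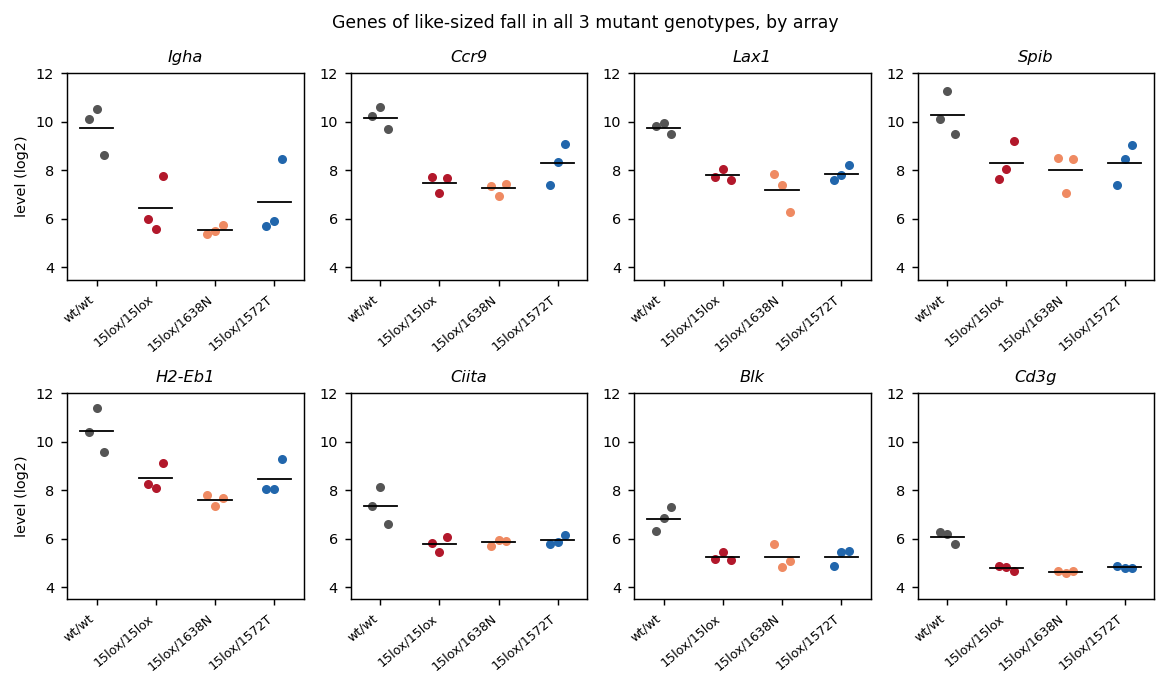
Log2 level (vertical axis) of 8 like-sized lower genes on each array (points) by genotype (horizontal axis), with a line at each group's mean. In each gene the mutant arrays of all 3 genotypes lie below the wild-type arrays; Igha and Spib have the widest spread within groups.

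Of the antigen presentation genes, H2-Eb1 and Ciita were like-sized falls in the pooled comparison, and neither was called in 15lox/1572T alone (adjusted p = 0.209 and 0.149). H2-Eb1, the MHC class II beta chain whose promoter is printed above, was at 10.41, 11.37 and 9.56 in wild type, at 8.27, 8.09 and 9.13 in 15lox/15lox, at 7.80, 7.34 and 7.67 in 15lox/1638N and at 8.05, 8.05 and 9.29 in 15lox/1572T. The groups did not overlap, and array 3 of 15lox/1572T came closest to wild type. The pooled difference was -2.26 ± 0.37 (adjusted p = 0.00774), with -1.95, -2.84 and -1.98 by genotype. The interval of 15lox/15lox minus 15lox/1572T was -0.96 to 1.02, so a difference of about 2-fold between them could not be told from none. The call was lost without wild-type array 4 (adjusted p = 0.0501) or 5 (0.0513).

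Ciita, the coactivator that switches on MHC class II genes, was at 7.36, 8.12 and 6.62 in wild type and at 5.81, 5.45 and 6.08 in 15lox/15lox, 5.70, 5.96 and 5.91 in 15lox/1638N and 5.80, 5.88 and 6.13 in 15lox/1572T. The 9 mutant values had an SD of 0.21, against 0.75 in wild type, and lay below every wild-type value. The differences were -1.59, -1.51 and -1.43 (pooled -1.51 ± 0.24, adjusted p = 0.00717), and the interval of 15lox/15lox minus 15lox/1572T was -0.81 to 0.49. On male-type arrays alone the difference was -1.48 with an adjusted p of 0.0504. Its other probe sets, at -0.48 and -0.55, did not pass. Cd74, the invariant chain, fell by 2.72 and missed the ratio, and Itgax, an integrin of dendritic cells, fell by 1.39.

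Among 17 measured MHC class II and dendritic cell genes 5 fell (Ciita, H2-Eb1, Cd74, H2-DMb2 and Itgax) and 1 rose, beside 1.38% and 1.08% of all genes. The list's median was -0.43. The one that rose, Cd83, a surface protein of mature dendritic cells, was graded, with differences of 4.98, 3.03 and 0.37. Mean levels of the list were 9.65 to 10.10 in wild type and 8.65 to 10.04 in the mutants, so the groups overlapped, with array 3 of 15lox/15lox among the wild-type values.

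Some members of the B and T lineage lists passed the pooled test, and most of those fell. Over all genes 1.38% were called lower and 1.08% higher. Blk, a Src-family kinase of B cells, was the most even of the named genes. It stood at 6.31, 6.85 and 7.32 in wild type and between 4.85 and 5.77 in the mutants (median 5.15), with differences of -1.59, -1.59 and -1.56 (pooled -1.58 ± 0.23, adjusted p = 0.00415). In 15lox/1572T alone it did not pass (adjusted p = 0.095). The interval of 15lox/15lox minus 15lox/1572T was -0.64 to 0.59. Fam167a, the next protein-coding gene beside Blk in RefSeq's order, was also like-sized (-1.21 ± 0.17, adjusted p = 0.0028). It is outside the naming rule.

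Ighm, the IgM heavy chain, was high in every group, at 11.73, 12.04 and 11.72 in wild type and between 10.69 and 11.40 in the mutants. It fell by 0.85 ± 0.13 (adjusted p = 0.00548), or 1.81-fold, but the mean of its probe sets fell by only 0.23 (adjusted p = 0.136). Ebf1, a factor that commits cells to the B lineage, fell by 1.67 ± 0.30 (adjusted p = 0.0124) and was not like-sized, with -1.83, -2.35 and -0.83. Its call was lost on male-type arrays and with the sex covariate (adjusted p = 0.0528 in each) and without wild-type array 5 (0.0745) or 6 (0.0883), and the mean of its probe sets fell by 0.46. These 3 were the called members of 13 B lineage genes, and 0 rose (1 higher at an unadjusted p under 0.05). The list's median was -0.20.

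Cd3g, a chain of the T cell receptor complex, was at 6.28, 6.20 and 5.79 in wild type and between 4.58 and 4.89 in the mutants (pooled -1.33 ± 0.10, adjusted p = 6.2e-05). Its mutant mean was at percentile 20 of all probe set means, where a lower level can hardly be read. Il2rb, a receptor chain for interleukins 2 and 15 named after its values were seen, fell from 6.91 to 5.37 (-1.55 ± 0.16, adjusted p = 0.000511). Of 16 T lineage and lymphocyte signalling genes 3 fell (Cd3g, Il2rb and Lat) and 2 rose (Rasgrp1 and Pdcd1), with a median of -0.05. Cd3e and Cd4 were near the bottom of the array in wild type too, as given above.

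Early lymphoid genes were led by falls as well. Of 13 measured, 6 fell (Cd7, Ccr9, Ly6d, Lax1, Ighm and Notch1) and 1 rose (Il7r, the interleukin 7 receptor), with a median of -0.51. The shares over all genes were 1.38% lower and 1.08% higher. Ccr9 and Ly6d are counted among the plasmacytoid genes too, and Ighm among the B lineage genes. Cd7, an early T and NK lineage surface protein, fell from 11.70, 11.99 and 11.35 to between 6.95 and 10.20 (pooled -3.02 ± 0.50, adjusted p = 0.00788). It was the deepest named fall that was not like-sized, with -3.10, -3.87 and -2.09, and its call was lost without wild-type array 4 (adjusted p = 0.0531) or 5 (0.0623). Notch1, the receptor that directs progenitors to the T lineage, fell by 0.58 (adjusted p = 0.0269), a call lost on male-type arrays (0.0701) and without any 1 of the wild-type arrays (0.0814 to 0.16). Il7r went the other way, by 4.11, 2.35 and 1.47. Mean levels of the list were 9.51 to 9.79 in wild type and 8.30 to 9.26 in the mutants, with no overlap.

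Further like-sized falls lay outside the lymphoid and dendritic cell lists. Crispld2, a secreted protein, was at 7.11, 7.62 and 6.82 in wild type, at 5.26, 5.17 and 5.47 in 15lox/15lox, at 5.54, 5.54 and 5.47 in 15lox/1638N and at 5.60, 5.36 and 5.34 in 15lox/1572T. The mutant values had an SD of 0.14. The differences were -1.88, -1.67 and -1.75 (pooled -1.77 ± 0.14, adjusted p = 6.77e-05), and the interval of 15lox/15lox minus 15lox/1572T was -0.51 to 0.24. The mean of its probe sets fell by 0.95.

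Bmper, a secreted regulator of BMP ligands, was at 6.46, 6.42 and 6.23 in wild type and between 3.85 and 5.00 in the mutants (pooled -2.20 ± 0.19, adjusted p = 0.000126). The mutant mean was at percentile 5.90 of probe set means, so its fold may be limited by the floor of the array. Sparc, a collagen-binding matrix protein, was at 8.37, 8.40 and 8.52 in wild type and between 5.77 and 8.27 in the mutants, where array 3 of 15lox/1572T stood at 8.27. It fell by 2.02 ± 0.39 (adjusted p = 0.0195), and the mean of its probe sets fell by 1.03. The call was lost on male-type arrays (adjusted p = 0.0684), with the sex covariate (0.0726) and without any 1 of the wild-type arrays (0.0925 to 0.0991). Sdc1, a cell surface proteoglycan and plasma cell marker, went from a mean of 12.97 to 11.54 (adjusted p = 0.00605).

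Of 14 stromal and matrix genes 3 fell (Sparc, Sdc1 and Sdc4) and 0 rose (1 higher at an unadjusted p under 0.05), with a median of -0.09. For this and the next 2 lists, the shares over all genes were 1.38% called lower and 1.08% called higher. Of 15 TGF-beta and BMP response genes 2 fell, Bmper and Pmepa1, a TGF-beta target that limits its own pathway, which was down by 0.98 ± 0.15 (adjusted p = 0.00548). The same list had 1 rise, Bmp4, which was graded at 4.47, 2.10 and -0.13 and lost its call without wild-type array 4 (adjusted p = 0.0569) or 6 (0.0511). The call of Sdc4, a syndecan, was lost without wild-type array 6 (0.0728). Of 14 Notch genes 2 fell, Dtx1 and Notch1, and 2 rose, Hey2 and Jag1, the latter not without any 1 of the wild-type arrays (adjusted p = 0.0665 to 0.112). Dtx1, a ubiquitin ligase and Notch target, was like-sized with -1.27, -1.12 and -0.86 (pooled -1.08 ± 0.18, adjusted p = 0.00908), and its call was lost without wild-type array 5 (0.0591) or 6 (0.0652) and on male-type arrays alone (0.0595).

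Cracdl and Wnt9a were also among the deepest like-sized falls and, like Igha and Crispld2 above, stand on none of the lists. Cracdl, which codes for a protein related to a capping inhibitor, was at 9.86, 10.12 and 9.62 in wild type and between 6.64 and 8.50 in the mutants (pooled -2.48 ± 0.24, adjusted p = 0.000263). Wnt9a, a Wnt ligand, was at 9.42, 9.90 and 9.04 in wild type and between 6.36 and 8.78 in the mutants (-1.91 ± 0.41, adjusted p = 0.0317), a call that 7 of 21 alternative settings lost, among them each wild-type array left out (0.0793 to 0.182) and the sex covariate (0.0962). In all, 67 of the 85 like-sized genes were on no list. Bcl9l, a coactivator of beta-catenin named after its values were seen, was among them, with -0.75, -0.60 and -0.66.

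Across the 77 lower genes the mean level on the wild-type arrays was 8.27, 8.50 and 8.26, and on the mutant arrays between 6.79 and 7.45. All 9 mutant arrays lay below the wild-type range for 73 of the 77, where 2.89% of all genes did so and 3.72% lay outside the range on either side. Against the same 3 wild-type arrays 464 genes were called in 15lox/15lox (2.55%), 631 in 15lox/1638N (3.47%) and 20 in 15lox/1572T (0.11%). In these comparisons 52 of the 77 were called in 15lox/15lox, 71 in 15lox/1638N and 13 in 15lox/1572T, beside 0.753%, 2.4% and 0.0824% of all genes that were called lower. The 77 were chosen by their differences from these same 3 wild-type arrays. Their counts of non-overlap and of calls are therefore not independent of that choice, and are description only. Their median wild-type level was 8.38, below the 9.85 of the other called lower genes, and the mutant mean of 14 was under percentile 30 of probe set means. The wild-type array that was highest was array 5 for 45 genes, array 6 for 25 and array 4 for 7.

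The 8 like-sized rises were led by a checkpoint receptor and a receptor of innate immunity. Pdcd1, which codes for PD-1, an inhibitory receptor of activated lymphocytes, was at 6.40, 6.5 and 6.92 in wild type. It reached 11.21, 10.35 and 10.98 in 15lox/15lox, 10.59, 10.31 and 11.28 in 15lox/1638N and 8.22, 9.75 and 9.70 in 15lox/1572T. The groups did not overlap, and array 1 of 15lox/1572T was the lowest of the mutants. The pooled difference was 3.66 ± 0.32 (adjusted p = 0.000128), a 12.6-fold higher level. The differences were 4.24, 4.12 and 2.62, and the interval of 15lox/15lox minus 15lox/1572T ran from 0.76 to 2.48. Adjusted over all genes, neither that difference (adjusted p = 0.0776) nor the F test (0.118) passed.

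Cd14, a co-receptor for bacterial lipopolysaccharide on monocytes, stood at 6.62, 6.45 and 6.67 in wild type. It rose to 9.41, 8.66 and 9.02 in 15lox/15lox, 10.37, 10.11 and 9.95 in 15lox/1638N and 9.19, 8.88 and 9.25 in 15lox/1572T. The pooled rise was 2.85 ± 0.15 (adjusted p = 8.08e-06), or 7.19-fold. It was the one like-sized gene that passed the F test (adjusted p = 0.0105), with 15lox/1638N above the others: the interval of 15lox/15lox minus 15lox/1638N was -1.51 to -0.72, whereas that of 15lox/15lox minus 15lox/1572T was -0.48 to 0.31. Of 14 monocyte and macrophage genes 3 rose (Cd14, F13a1 and Ccr2) and 0 fell (2 lower at an unadjusted p under 0.05). Of all genes 1.08% were called higher and 1.38% lower, and 10.9% were lower at that unadjusted p (limma). F13a1 lost its call without any 1 of the wild-type arrays (adjusted p = 0.0507 to 0.122). The median of that list was -0.13, with mean levels of 9.21 to 9.43 in wild type and 9.28 to 9.99 in the mutants.

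The remaining rises were smaller. Tmem243, a membrane protein, went from 8.62, 8.35 and 8.98 to between 9.59 and 10.42 (1.39 ± 0.15, adjusted p = 0.000529). P2rx7, the ATP-gated channel of immune cells, went from 9.17, 9.33 and 9.28 to between 9.84 and 11 (1.02 ± 0.16, adjusted p = 0.00731), and its call was lost without wild-type array 4 (0.0562) and when its probe sets were averaged (0.53, adjusted p = 0.139). Both had wild-type and mutant arrays fully apart.

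Cdc23, a subunit of the anaphase-promoting complex, had the smallest SD of the 8 in both groups, at 11.28, 11.39 and 11.28 in wild type and between 12.02 and 12.30 in the mutants. Its differences were 0.77, 0.90 and 0.79 (pooled 0.82 ± 0.07, adjusted p = 9.58e-05), and the interval of 15lox/15lox minus 15lox/1572T was -0.21 to 0.17. Enc1 (0.67 ± 0.10), Atp8b4, a phospholipid flippase subunit (0.85 ± 0.18), and Hs3st3b1, a heparan sulphate sulphotransferase (1.49 ± 0.31), complete the set. The calls of Atp8b4 (0.0921 to 0.155) and Hs3st3b1 (0.0988 to 0.162) were lost without any 1 of the wild-type arrays, and both with the sex covariate (0.0903 and 0.0999). Over the 8 genes the mean level was 8.53 to 8.64 on wild-type arrays and 9.77 to 10.42 on mutant arrays. All 9 mutant arrays lay above the wild-type range for 8 of 8, where 0.824% of all genes did so. In each genotype alone 8, 6 and 4 of them were called, beside 1.8%, 1.07% and 0.0275% of all genes that were called higher. The 8 were likewise chosen by their differences from the same wild-type arrays, so both counts are description only.

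**Figure D4:**
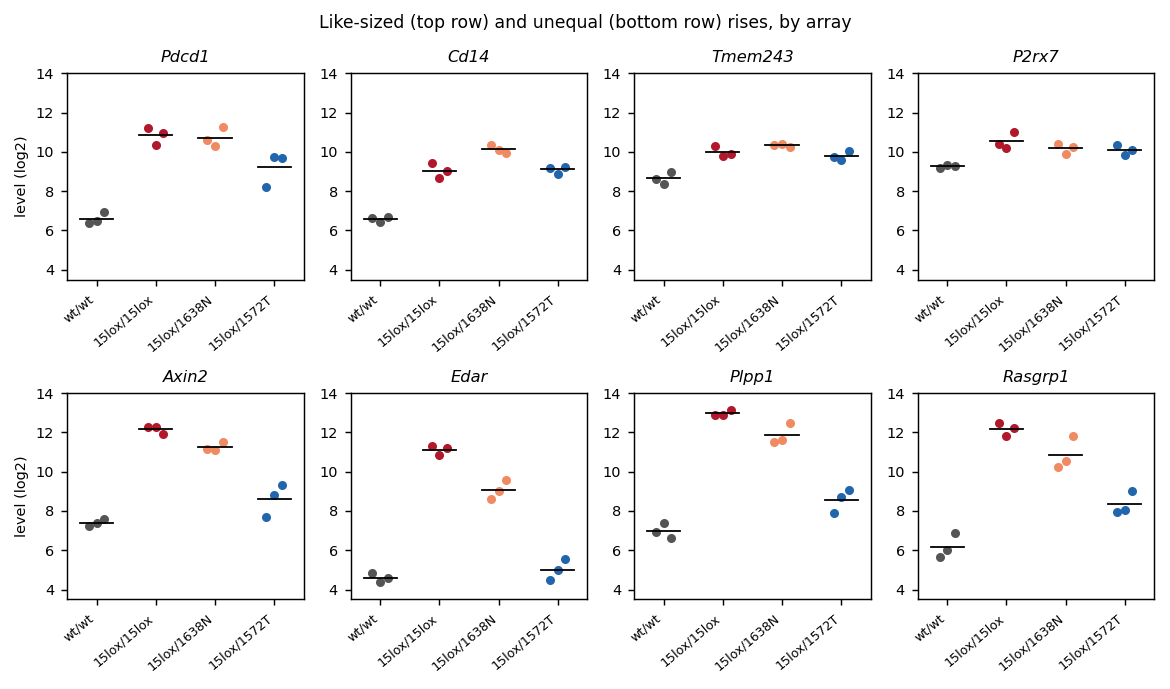
Log2 level (vertical axis) on each array (points) by genotype (horizontal axis), with a line at each group's mean, for 4 like-sized rises (top, Pdcd1, Cd14, Tmem243 and P2rx7) and 4 rises of unequal size (bottom, Axin2, Edar, Plpp1 and Rasgrp1). In the bottom panels 15lox/1572T lies nearest to wild type, as with Edar, where the differences are 6.51, 4.46 and 0.41.

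Of the named genes, Rasgrp1, Plpp1 and Edar had higher pooled differences than Pdcd1, and each was unequal between genotypes. Rasgrp1, an activator of Ras in lymphocytes, was up by 4.26, with 5.98, 4.67 and 2.14. Plpp1, a lipid phosphatase, was up by 4.14, with 5.98, 4.87 and 1.59. Edar, the ectodysplasin receptor, was up by 3.79, with 6.51, 4.46 and 0.41. The Wnt target list held further graded rises. Axin2, a feedback scaffold of the destruction complex, was up by 3.27 ± 0.26 with 4.77, 3.86 and 1.2, and the F test passed (adjusted p = 0.000228).

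Of 23 Wnt feedback and target genes 9 rose and 0 fell, beside 1.08% and 1.38% of all genes. At an unadjusted p under 0.05 (limma) 0 were lower, beside 10.9% of all genes. The F test passed 10 of the 23, beside 1.37% of all genes. Like-sized genes were 4.08% of the called higher genes, and 0 of the 9 here is near that share. The list's median was 1.28, 0.56 and 0.08 by genotype. Mean levels of the list on the 15lox/1572T arrays, 7.42 to 7.75, overlapped those on the wild-type arrays, 7.37 to 7.45, whereas those of 15lox/1638N (8.27 to 8.64) and 15lox/15lox (8.87 to 9.16) did not. Lef1, the nuclear partner of beta-catenin, was at 6.36, 6.12 and 6.30 in 15lox/1572T, within the wild-type range of 5.96 to 6.91, though its pooled difference was 2.52. Ccnd1 (-0.14, adjusted p = 0.695), Ctnnb1 (0.07, 0.742) and Myc (0.23, 0.818) did not pass.

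**Figure D5:**
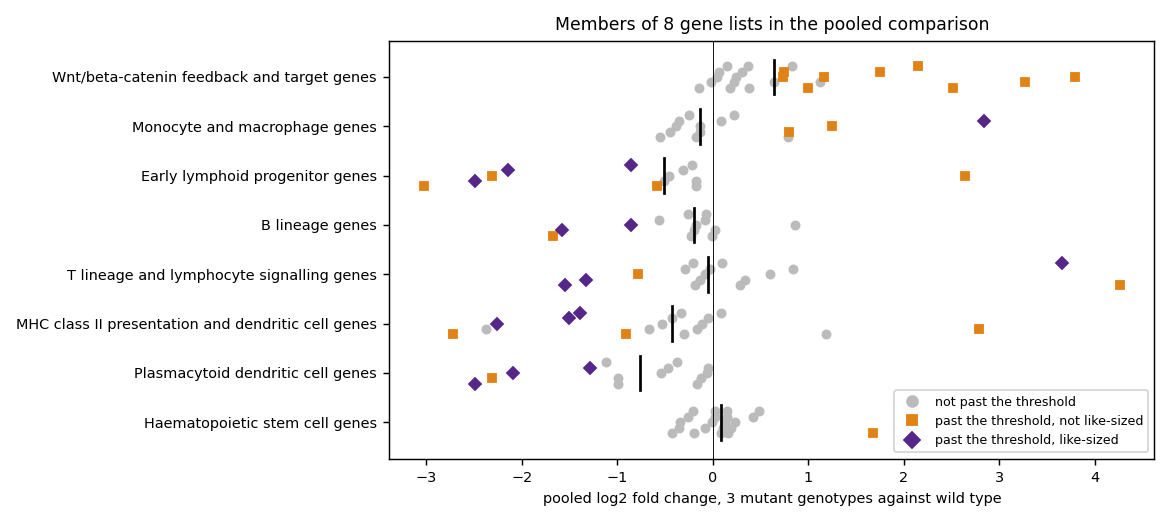
Pooled log2 difference from wild type (horizontal axis) of every measured member (points) of 8 gene lists (vertical axis), with a thick line at each list's median, diamonds for like-sized genes, squares for other called genes and grey points for the rest. Plasmacytoid dendritic cell genes lie below 0 in 14 of 14 members with a median of -0.77, while Wnt target genes reach up to 3.79.

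11 of the 28 lists had no called member. They held 155 measured entries, where a gene on more than 1 list, such as Kit or Flt3, counts each time. Of these entries 7 were higher and 14 lower at an unadjusted p under 0.05 (limma). The shares were 4.52% and 9.03%, beside 4.46% and 10.9% of all genes. They covered the mast cell, megakaryocyte, erythroid, interferon, DNA replication, mitosis, ribosome biogenesis, heat shock, culture cytokine receptor, LSK marker and sex-linked genes. Among stem cell genes 1 of 21 rose, Tek, the angiopoietin receptor, by 1.68, and it was graded at 2.23, 2.41 and 0.41. Of 81 like-sized genes matched to RefSeq's gene order, 3 pairs lay within 5 protein-coding genes of each other. Blk with Fam167a and Dtx1 with Rasal1 were directly adjacent. No background count was made, so whether such pairs are few or many was not tested.

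Other probe sets of the same genes gave a check on the values that the choice of probe set did not use. For 36 of the 85 like-sized genes there were 70 further probe sets, of which 66 moved in the same direction. Of the 70, 23 passed the test over all probe sets in the same direction, and 0 of the 4 that went the other way passed. Over all 45101 probe sets 532 passed, 273 higher and 259 lower. Of all 18194 genes 10903 had a pooled difference below 0. The further probe sets were read on the same arrays. When all probe sets of a gene were averaged, the pooled difference shrank by over 1.5 times for several named genes. Among like-sized genes it was then -1.40 for Ccr9, -1.06 for Wnt9a, -0.85 for Ciita, -0.63 for Pmepa1, 0.50 for Cdc23, 0.39 for Enc1 and 0.36 for Hs3st3b1. Among genes of unequal change it was 2 for Axin2, 1.86 for Edar, 1.90 for Rasgrp1, 2.73 for Plpp1 and 1.31 for Lef1.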

How the data were processed

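Each of 15 samples was 1 array of amplified, biotin-labelled total RNA. The authors deposited log2 probe set summaries; that they are log2 is read from the range of the values. The submitters' processing notes name RMA (robust multi-array average) and the build mm9 without a version or settings, and the sources used here do not state background correction or quality filters. Of 45101 probe sets the platform annotation gave 34958 a single symbol and 932 more than 1, with 9211 unlisted. The single-symbol probe set of highest mean over all arrays stood for each gene, with no filter and no further normalization, which left 18194 genes. Ly6a and Tcf7 had no such probe set and are not analysed here. The number of arrays, 3 per group, limits the precision.

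The 12 arrays were fitted as 4 groups by limma's lmFit and eBayes, default options (limma 3.58.1, R 4.3.3). The contrast was the mean of the 3 mutant genotype means minus wild-type arrays 4 to 6, two-sided, with Benjamini-Hochberg adjustment over all genes and a threshold of 0.05. Each genotype against wild type, each pair of genotypes and a moderated F test over the mutant genotypes came from the same fit. The genotype contrasts share their control arrays, so their values are set side by side only. The method was tested on simulated data. Values are means ± SD or differences ± SE.

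The members, lists and rules were chosen with earlier results of these data known. Named genes were first taken from called genes with all 9 mutant arrays outside the wild-type range. These were up to 10 like-sized rises (8 existed), the 10 lowest like-sized genes, and the 5 highest and 5 lowest others. Without that condition on the range, Apc and 7 Wnt genes were named whatever their values, and up to 3 called members of each list. Genes named with their values already known, against the rule, are Il2rb, Lat, Cd74, H2-DMb2, Itgax, Hey2, Il7r, Fam167a, Rasal1, Ddx4, Bcl9l and the genes at the limit of the ratio. There were 28 gene lists, described by counts and medians without a set test. Promoters and gene order came from RefSeq tables for GRCm38.p6, used for no other coordinates. Alternatives covered the wild-type arrays, sex type, normalization, eBayes options, array weights, filters, probe set choice, thresholds, the replicate block and each array left out in turn.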

Additional observations from a re-analysis of the deposited data

Results flagged for a closer look

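Of 26 like-sized named genes, 3 had a mutant array far from the other 8 by Dixon's ratio, which chance exceeds in about 1 of 20 groups. Lax1 was at 6.30 on array 3 of 15lox/1638N, below the other mutant arrays. P2rx7 was at 11 on array 3 of 15lox/15lox, above them. Sparc was at 8.27 on array 3 of 15lox/1572T, close to its wild-type values of 8.37 to 8.52.

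The difference from wild type itself differed between mutant genotypes (moderated F test, limma, adjusted p under 0.05) for 14 named genes. In 15lox/15lox minus 15lox/1572T the difference was largest for Edar, an ectodysplasin receptor, at 6.11. It was 4.61 for Cd83, 4.60 for Bmp4, 4.39 for Plpp1 and 4.25 for Lef1. It was 3.96 for Zcchc14, 3.84 for Rasgrp1, 3.56 for Axin2 and 3.32 for Pxdc1. It was 2.97 for Apcdd1, 2.27 for Nkd1 and 0.78 for Ccr2, all of them higher in 15lox/15lox. Tek differed most between 15lox/1638N and 15lox/1572T, by 2.00. Cd14 was the only like-sized gene of the 14, with 15lox/15lox minus 15lox/1638N at -1.11.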

How the results depend on the processing

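The 447 pooled calls became 2424 with all 6 wild-type arrays (685 higher, 1739 lower), 1825 with array weights (512 and 1313), 242 with sex type as a covariate (121 and 121), 110 with mutant and wild-type arrays as 2 groups, 184 at an adjusted p under 0.01 and 741 at under 0.1. Leaving out 1 array gave 171 to 649, the highest without 15lox/15lox array 3. The count of 85 like-sized genes became 47 on male-type arrays (9 higher, 38 lower) and 59 with the sex covariate. Of these, 34 and 51 were among the 85, and 64 and 55 of the 85 were still called. The count was 54 with genes above the median level (53 among the 85) and 131 with array weights (73 among the 85). It was 30 at a ratio of 0.75, 39 at 2-fold in each genotype and 146 with no minimum fold. Leaving out 1 array gave 49 to 115, with 49 without wild-type array 4 or 5. The 250 genes that differed between genotypes became 408 with all 6 wild-type arrays, 156 on male-type arrays and 161 above the median level, and 181 to 324 with 1 array left out. The cause was not tested, apart from settings that by construction use fewer arrays, fewer genes or another threshold. Replicate numbers were not used to pair the samples in the main fit, and wild-type arrays 4 to 6 share no number with the mutant arrays. Of 9 same-numbered pairs of mutant arrays, 3 correlated above 0.1 (range -0.13 to 0.43). The highest were 15lox/15lox with 15lox/1638N, at 0.333 for number 2 and 0.43 for number 3. Differently numbered pairs were not compared, so whether the numbers pair samples is not settled. With the replicate block on all 15 arrays there were 517 pooled calls, 83 like-sized genes and 276 between genotypes. Of 57 named genes 54 were called and 28 passed in every alternative run; Apc turned to -1.10 with the mean of its probe sets. Single-gene calls were lost most often without wild-type array 5 (21 genes), 4 (20) or 6 (18).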
